A study of Homo sapiens with 12 samples.

Results

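Molecular chaperones of the cytosol and the mitochondria were followed across the 4 groups of a CXXC5 experiment in K562, an established human leukaemia cell line that the labels call an AML line. Members were taken by gene symbol: HSPA, HSPB, HSPD, HSPE, HSPH and HSP90 genes, DNAJ genes, BAG and CCT genes with a digit, TCP1, HSF1, HSF2 and SERPINH1. The endoplasmic reticulum genes HSPA5, HSP90B1, DNAJB9, DNAJB11 and DNAJC3 were left out. This rule found 67 of 11963 genes, each represented by its brightest probe set, judged by the mean of all 12 arrays. HSPA1A, HSPA1B, HSPA8 and TCP1 have probe sets that are paired with several symbols and were not used here, and HSF2 was not analysed here. The rule takes a few genes that lie outside its label, such as the endoplasmic reticulum proteins SERPINH1 and DNAJC10, and 2 genes, HSPBP1 and HSPBAP1, by their letters alone.

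All cells received recombinant Wnt3a at 100 ng/ml in serum-free medium, and total RNA was taken after 8 h. CXXC5 overexpression cells were nucleofected with a pEGFP-C2 vector holding human CXXC5, and their control was the empty pEGFP-C2 vector, both transient. CXXC5 knockdown cells carried a lentiviral pLKO shRNA against CXXC5, and their control was a scrambled shRNA in the same kind of vector, both stable. The labels name a pair of shRNA clones without saying which sample carried which, and they do not give the share of cells that took up a nucleofected vector. Each group held 3 arrays of this 1 line. The labels do not say whether replicates were cultured apart. The p-values therefore reflect only how far these samples spread, and that spread may be technical.

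Chaperones bind proteins that are unfolded or not yet folded. HSP70 proteins (HSPA) do this in cycles of ATP hydrolysis, which J-domain proteins (DNAJ) start. Nucleotide exchange factors such as several BAG proteins and HSP110 reset these cycles. HSP90 matures kinases and receptors, the TRiC ring built of CCT subunits folds actin and tubulin, and HSP60 with its lid HSP10 folds proteins inside mitochondria. Small heat shock proteins (HSPB) hold unfolded proteins without ATP. Under stress, heat shock factor HSF1 binds repeated GAA and TTC blocks in the promoters of many of these genes.

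Promoters of 4 members that differed between groups are shown first, because they carry such blocks. An element was counted where the letters GAANNTTC or TTCNNGAA stood in the window from 250 bases before to 50 bases after a gene's start. Each of these is its own reverse complement, so both strands are covered, and the 2 forms overlap where 3 blocks follow each other. Below are stretches before the start, 5′ to 3′ on the gene's strand, from RefSeq (GRCh38.p14), with the elements in capitals.
SERPINH1, chr11:75562147-75562219, plus strand: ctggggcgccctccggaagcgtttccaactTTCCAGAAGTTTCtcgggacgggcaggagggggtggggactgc
HSPA6, chr1:161524330-161524508, plus strand: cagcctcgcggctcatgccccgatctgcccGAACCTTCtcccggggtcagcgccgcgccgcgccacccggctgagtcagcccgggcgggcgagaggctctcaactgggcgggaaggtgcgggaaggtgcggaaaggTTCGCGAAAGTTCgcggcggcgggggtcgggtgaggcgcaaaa
DNAJB6, chr7:157336843-157336915, plus strand: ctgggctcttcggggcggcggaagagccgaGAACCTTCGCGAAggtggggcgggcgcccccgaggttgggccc
HSPA1L, chr6:31815407-31815474, minus strand: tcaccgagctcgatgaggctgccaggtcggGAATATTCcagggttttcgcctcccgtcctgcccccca

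SERPINH1, HSPA6 and DNAJB6 each hold a run of 3 blocks, while HSPA1L holds 1 element of 2 blocks. Of 67 members, 59 had a promoter window, and 23 of these (39%) held at least 1 element, against 15% of the 9563 measured genes with a window. Runs of 3 blocks stood in 7 members (11.9%), against 0.544% of measured genes. Elements stood in members that differed between groups and in members that did not: 8 of 20 members past the test over the 4 groups held one, and 15 of 39 others. Runs of 3 blocks stood in 4 of those 20 members (SERPINH1, HSPA6, DNAJB6 and DNAJA1) and in 3 of the 39 others. These counts were not tested. HSP90AA1, HSP90AB1 and HSPD1, described below, hold runs of 3 blocks and did not pass any test here. A match of letters is a description and not a bound site.

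Values are log2 expression per probe set, and a change of 1 means a 2-fold difference. Genes were tested with limma over all 11963 genes, and a gene rose or fell where its Benjamini-Hochberg adjusted p was under 0.05. Array medians lay between 6.65 and 6.71. Replicates of a group correlated at 0.996 to 0.998. The array of scrambled shRNA replicate 3 stood apart in the 3′ minus 5′ difference of the GAPDH control, a sign of RNA and labelling quality, at 0.87 log2 against 0.227 to 0.335 in the other 11 arrays. The red cell markers GATA1, KLF1, HBE1, HBZ, TAL1, LMO2, TFRC and KIT averaged 8.1 to 13.4, and these were the 8 measured of 10 markers listed for the line. Of the markers of other cell types, CD3D (10.9), FN1 (10.9), EPCAM (11.2) and KRT18 (12.1) also read brightly, while CD2, CD79A, MS4A1, COL3A1, PECAM1, KRT5 and CDH1 read low, at 3.88 to 5.46. COL1A1 (7.9) and CD3E (6.16) lay between them. CXXC5 itself was not analysed here, so groups are called by their labels. On arrays of cell cultures, fewer cells of a kind and less RNA per cell cannot be told apart.

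Over the 4 groups together, 24 of the 67 chaperone genes differed (35.8%), close to the 33.2% of all genes. With CXXC5 overexpression against empty vector, 8 differed (11.9%, against 6.98% of all genes): 4 rose, against 3.61% of all genes, and 4 fell, against 3.37%. With CXXC5 knockdown against scrambled shRNA, 14 differed (20.9%, against 14% of all genes): 9 rose, against 8.79% of all genes, and 5 fell, against 5.22%. The median change over the 67 genes was -0.05 with overexpression and 0.05 with knockdown, where the medians of all genes were 0.0013 and -0.0091. At the probe sets used, no member changed by more than 1.5-fold in either comparison. Groups without overlap were counted too. With overexpression 8 of the 67 genes lay wholly above empty vector and 23 wholly below, against 12.6% and 15.3% of all genes. With knockdown 19 lay wholly above scrambled shRNA and 12 wholly below, against 18.2% and 14.2%. The counts of calls rested partly on single arrays. Overexpression calls numbered 4 without overexpression replicate 3 and 5 without empty vector replicate 2, and knockdown calls numbered 8 without knockdown replicate 1 and 7 without knockdown replicate 3.

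**Figure D1:**
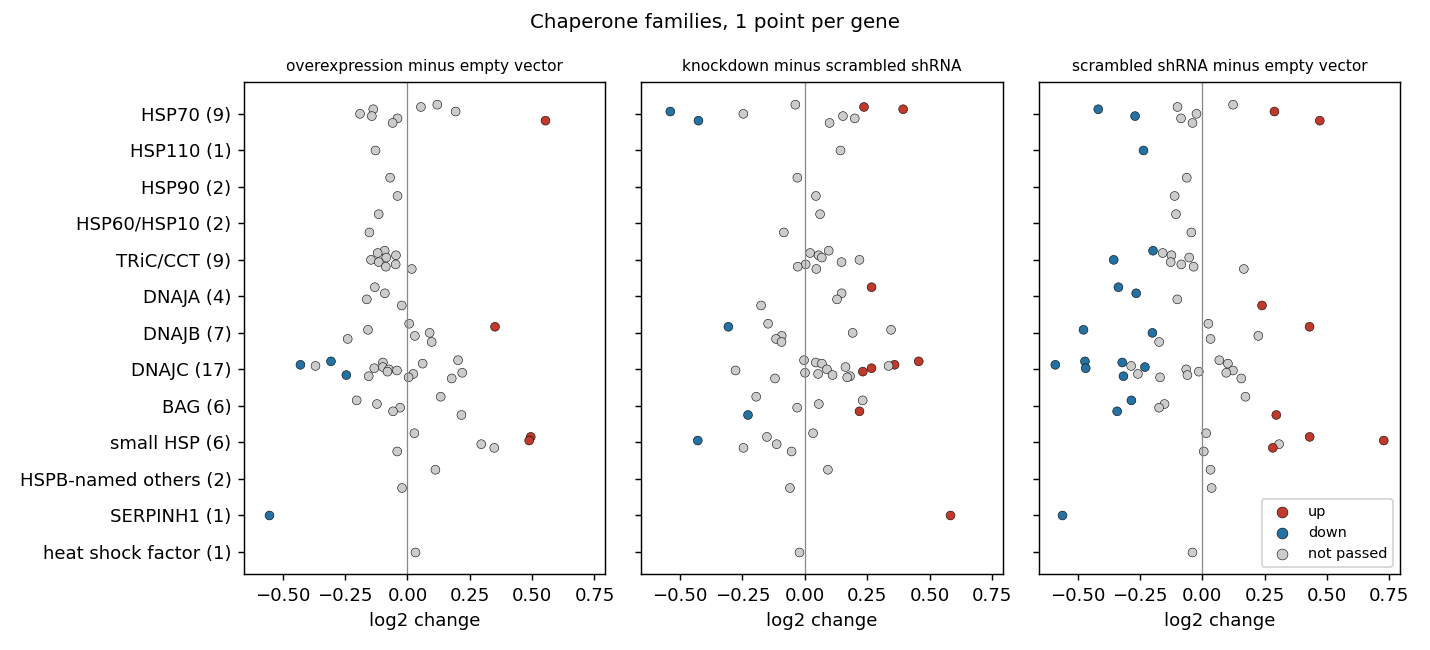
Log2 change of 67 chaperone genes (x axis) by family (rows, number of genes in brackets) in 3 panels: overexpression against empty vector, knockdown against scrambled shRNA, and scrambled shRNA against empty vector. Each point is 1 gene, coloured by whether it rose, fell or did not pass at an adjusted p under 0.05. SERPINH1 lies at -0.56, 0.58 and -0.56 in the 3 panels.

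SERPINH1, known as HSP47, is a chaperone of procollagen in the endoplasmic reticulum and a classical heat shock gene. It measured 8.82, 8.75 and 8.69 in overexpression arrays, against 9.31, 9.26 and 9.36 in empty vector arrays. In knockdown arrays it measured 9.29, 9.38 and 9.32, against 8.65, 8.83 and 8.76 with scrambled shRNA. No array of either pair of groups overlapped with the other, and the overexpression and scrambled shRNA arrays formed the low set. It fell by 0.56 log2 with overexpression (SE 0.0632, adjusted p = 0.000343) and rose by 0.58 with knockdown (SE 0.0632, adjusted p = 0.000122). In scrambled shRNA against empty vector it was also lower, by -0.56 (adjusted p = 7.23e-05), so knockdown arrays stood 0.02 from empty vector arrays (95% interval -0.12 to 0.16). All of its 3 calls and the difference of the effects, at -1.14, held in each alternative run that included it. SERPINH1 has 1 probe set, of a kind (_s_at) that can match other transcripts. The run without such probe sets therefore left it out.

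Among HSP70 genes, HSPA6 moved most with overexpression. Its mean over the 12 arrays was 6.48, at percentile 40 of all genes, and whether that stands above background was not tested. HSPA6 encodes a human HSP70 that is known to be nearly silent until stress, and a probe set for it can also read its pseudogene HSPA7. It measured 6.89, 6.75 and 6.65 in overexpression arrays, against 6.09, 6.22 and 6.31 in empty vector arrays. In knockdown arrays it measured 6.09, 6.39 and 6.28, against 6.65, 6.63 and 6.76 with scrambled shRNA. The overexpression and scrambled shRNA arrays were all above the other 6. It rose by 0.55 with overexpression (SE 0.0911, 1.47-fold, adjusted p = 0.00365) and fell by 0.43 with knockdown (SE 0.0911, adjusted p = 0.00862). A second, dimmer HSPA6 probe set stood at 0.43 (adjusted p = 0.0235 over all probe sets) and at -0.25 (adjusted p = 0.117). Thus the fall with knockdown was called at 1 of its 2 probe sets.

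HSPA1L, an HSP70 known best from testis, averaged 6.41 over the 12 arrays, at percentile 40 of all genes, and was lowest in knockdown arrays. It measured 6.02, 6.19 and 6.10 there, against 6.67, 6.64 and 6.62 with scrambled shRNA, a fall of 0.54 (SE 0.0753, adjusted p = 0.000693). With overexpression it measured 6.51, 6.62 and 6.51, against 6.29, 6.51 and 6.26 in empty vector arrays. These arrays overlapped, and the change of 0.19 did not pass. HSPA14, an HSP70 that works at the ribosome together with DNAJC2, went the other way. It measured 10.78, 10.77 and 10.72 in knockdown arrays, against 10.46, 10.38 and 10.25 with scrambled shRNA, a rise of 0.39 (SE 0.0636, adjusted p = 0.00167). Its values of 10.67, 10.66 and 10.60 with overexpression lay below the 10.83, 10.77 and 10.73 of empty vector arrays without passing the test (-0.14). Its partner DNAJC2 stood at -0.07 with overexpression and 0.09 with knockdown.

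HSPA13, a microsomal HSP70 that lacks a substrate-binding domain, measured 9.30, 9.12 and 9.23 in knockdown arrays, against a mean of 8.98 ± 0.0259 (SD, n = 3) with scrambled shRNA, and the groups did not overlap. It rose by 0.24 (adjusted p = 0.0183), and leaving out knockdown replicate 1 or knockdown replicate 3 lost this call. Its second probe set stood at 0.04 with knockdown and did not pass. Of the 9 HSP70 genes, 2 rose and 2 fell with knockdown (8.79% and 5.22% of all genes), and 1 rose with overexpression (3.61% of all genes). The mitochondrial HSP70 HSPA9 measured 12.19 to 12.25 in overexpression arrays, 12.24 to 12.29 in empty vector arrays, 12.31 to 12.36 in knockdown arrays and 12.15 to 12.30 with scrambled shRNA. The knockdown arrays were all above the scrambled shRNA arrays, but the change of 0.10 did not pass (95% interval -0.02 to 0.22). With overexpression, where the ranges overlapped, it stood at -0.06 (95% interval -0.18 to 0.06). HSPA2 and HSPA12A had low means, 4.06 and 4.86, and did not pass in either comparison.

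**Figure D2:**
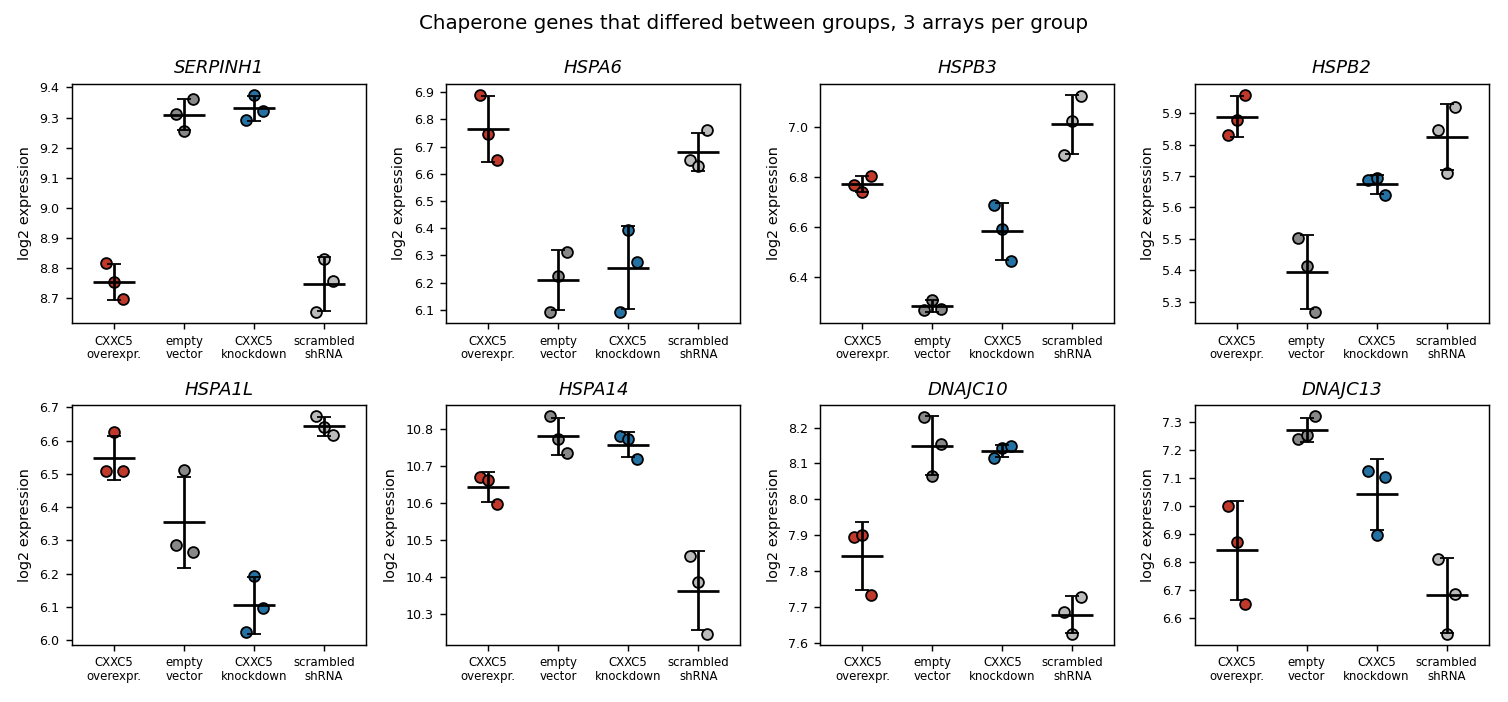
Log2 expression (y axis, a separate range for each gene) of 8 chaperone genes in CXXC5 overexpression, empty vector, CXXC5 knockdown and scrambled shRNA arrays. Points are arrays, and bars are the mean and SD of 3. HSPA6, HSPB2 and HSPB3 were higher, and SERPINH1, HSPA14 and DNAJC10 lower, in all overexpression and scrambled shRNA arrays than in all empty vector and knockdown arrays.

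Among small heat shock genes, HSPB2 and HSPB3 rose with overexpression. Their means over the 12 arrays were 5.70 and 6.66, at percentiles 30 and 43 of all genes. Whether such levels stand above background was not tested. HSPB2 and HSPB3 are known to form a complex in muscle, where HSPB2 binds the myotonic dystrophy kinase. HSPB3 measured 6.77, 6.74 and 6.81 in overexpression arrays, against 6.27, 6.31 and 6.27 in empty vector arrays, a rise of 0.49 (SE 0.0733, adjusted p = 0.00188). With knockdown it measured 6.69, 6.59 and 6.46, against 6.89, 7.02 and 7.12 with scrambled shRNA, a fall of 0.43 (SE 0.0733, adjusted p = 0.00241). HSPB3 thus fell with knockdown yet stayed above empty vector arrays, by 0.30 (adjusted p = 0.0414), a call that ended without any of 9 arrays in turn. HSPB2 measured 5.83, 5.88 and 5.96 in overexpression arrays, against 5.50, 5.41 and 5.27 in empty vector arrays, a rise of 0.49 (SE 0.0747, adjusted p = 0.00196). Its change of -0.15 with knockdown did not pass.

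HSPB1, the broadly expressed HSP27, measured 11.95 to 12.05 with overexpression and 11.93 to 12.00 with empty vector. It measured 11.99 to 12.07 with knockdown and 11.97 to 12.00 with scrambled shRNA. These ranges overlapped, and its changes were 0.03 in both comparisons, with 95% intervals of -0.09 to 0.14 and -0.08 to 0.15. HSPB7, a small heat shock protein of the heart, read dimly at a mean of 4.84 and stood at 0.35 with overexpression (adjusted p = 0.0539) and -0.25 with knockdown (adjusted p = 0.124). The difference of its effects passed, at 0.59 (SE 0.139, adjusted p = 0.00971). HSPB6 and HSPB8 were dim as well and did not pass in either comparison, at 0.30 and -0.04 with overexpression and -0.11 and -0.05 with knockdown. Of the 6 small heat shock genes, 2 rose with overexpression (3.61% of all genes rose) and 1 fell with knockdown (5.22% of all genes fell).

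J-domain proteins gave 3 falls with overexpression and 4 rises with knockdown among the 17 DNAJC genes, where 3.37% of all genes fell with overexpression and 8.79% rose with knockdown. DNAJC proteins take HSP70 to particular places and clients. DNAJC10, known as ERdj5, reduces disulfide bonds in the endoplasmic reticulum. It measured 7.90, 7.90 and 7.73 in overexpression arrays, against 8.23, 8.06 and 8.16 in empty vector arrays, and fell by 0.31 (adjusted p = 0.0156). In knockdown arrays it measured 8.12, 8.14 and 8.15, against 7.68, 7.62 and 7.73 with scrambled shRNA, a rise of 0.46 (SE 0.0654, adjusted p = 0.000809). The groups did not overlap in either comparison. The overexpression call ended without overexpression replicate 3 or empty vector replicate 1. The second probe set of this gene stood at -0.23 with overexpression (adjusted p = 0.5 over all probe sets) and at 0.63 with knockdown (adjusted p = 0.0218).

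DNAJC13, which acts on endosomes, fell by 0.43 with overexpression (adjusted p = 0.0223) and rose by 0.36 with knockdown (adjusted p = 0.0297). It measured 7.00, 6.87 and 6.65 in overexpression arrays, against 7.24, 7.25 and 7.32 in empty vector arrays. With knockdown it measured 7.12, 6.90 and 7.10, against 6.81, 6.54 and 6.69 with scrambled shRNA. These groups did not overlap, but leaving out any of 5 arrays lost the overexpression call, and any of 4 lost the knockdown call. DNAJC6 encodes auxilin, which strips clathrin from vesicles. It measured 10.82, 10.85 and 10.83 with overexpression, against 11.07, 11.10 and 11.06 with empty vector, a fall of 0.24 (SE 0.0539, adjusted p = 0.0179). That call ended without any of 4 arrays, and its second, dimmer probe set stood at -0.14 and did not pass.

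DNAJC17, a nuclear protein linked to splicing, and DNAJC24, which takes part in diphthamide synthesis, rose with knockdown by 0.27 (adjusted p = 0.0212) and 0.23 (adjusted p = 0.0319). DNAJC17 measured 7.43, 7.51 and 7.59 in knockdown arrays, against 7.17, 7.29 and 7.27 with scrambled shRNA. DNAJC24 measured 9.11, 8.90 and 8.99 in knockdown arrays, against 8.80, 8.78 and 8.72 with scrambled shRNA. Neither pair overlapped, though each call ended without any of several arrays (3 for DNAJC17 and 5 for DNAJC24). DNAJC15, a J-protein of the mitochondrial inner membrane, stood at -0.37 with overexpression (adjusted p = 0.0587) and at 0.34 with knockdown (adjusted p = 0.0547). The difference of its effects passed at -0.70 (SE 0.150, adjusted p = 0.0056). DNAJC7, a J-protein with TPR repeats that binds both HSP70 and HSP90, passed likewise, at -0.34 (adjusted p = 0.0104), while its second, dimmer probe set stood at 0.19 and did not pass.

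Of 4 DNAJA and 7 DNAJB genes, 2 passed in either comparison, where 6.98% of all genes passed with overexpression and 14% with knockdown. DNAJA1, a general partner of cytosolic HSP70, measured 12.15, 12.13 and 12.14 in knockdown arrays, against 11.94, 11.91 and 11.77 with scrambled shRNA. It rose by 0.27 (SE 0.0597, adjusted p = 0.011), and its change with overexpression, -0.13, did not pass. Its second probe set stood at 0.24 with knockdown and did not pass (adjusted p = 0.0774 over all probe sets), and the call was also lost in a fit of the 6 knockdown and scrambled shRNA arrays alone. DNAJB12, which sits in the endoplasmic reticulum membrane and faces the cytosol, moved the opposite way to DNAJC10. It measured 8.54, 8.70 and 8.61 with overexpression, against 8.37, 8.18 and 8.24 with empty vector, a rise of 0.35 (adjusted p = 0.0269). In knockdown arrays it measured 8.35, 8.39 and 8.43, against 8.61, 8.60 and 8.88 with scrambled shRNA, a fall of 0.31 (adjusted p = 0.0299). Each DNAJB12 call ended without any of 4 arrays. Its other 3 probe sets, all dimmer, stood at -0.16 to 0.14 with overexpression and -0.12 to -0.06 with knockdown.

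DNAJB1, the main stress-induced J-protein of the cytosol, measured 9.80 to 9.92 with overexpression and 9.82 to 9.89 with empty vector. It measured 9.72, 9.71 and 9.77 with knockdown, against 9.95, 9.85 and 9.84 with scrambled shRNA. The change of -0.15 with knockdown did not pass (adjusted p = 0.113), although the knockdown arrays were all below the scrambled shRNA arrays. A second DNAJB1 probe set stood at -0.41 with knockdown (SE 0.0975, adjusted p = 0.0199 over all probe sets), so the choice of probe set decided this call. DNAJB6, a J-protein known to hold back aggregation, passed over the 4 groups (adjusted p = 0.0151) but in neither comparison. It averaged 9.51 with overexpression and 9.41 with empty vector, and 9.14 with knockdown and 9.24 with scrambled shRNA.

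Several BAG proteins release ADP from HSP70. BAG5 measured 9.30, 9.24 and 9.26 in knockdown arrays, against 9.10, 9.01 and 9.03 with scrambled shRNA, and rose by 0.22 (adjusted p = 0.0229). BAG6, which handles membrane proteins stranded in the cytosol, measured 11.35, 11.44 and 11.34 with knockdown, against 11.57, 11.58 and 11.66 with scrambled shRNA, and fell by 0.23 (adjusted p = 0.0346). Neither pair overlapped. The BAG5 call was lost when any of 3 arrays was left out, and the BAG6 call when any of 6 was. The second BAG5 probe set rose as well, by 0.41 with knockdown (adjusted p = 0.0285 over all probe sets). The other 2 BAG6 probe sets stood at -0.15 and -0.17 with knockdown and did not pass. BAG2, an inhibitor of the ubiquitin ligase that works with HSP70, passed in the difference of the effects (-0.44, adjusted p = 0.0396) but in neither of them, and leaving out any of 8 arrays lost that call. BAG1 stood at 0.13 and -0.19, and BAG3, a stress-induced autophagy adaptor, at -0.12 and 0.06. Neither passed.

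**Figure D3:**
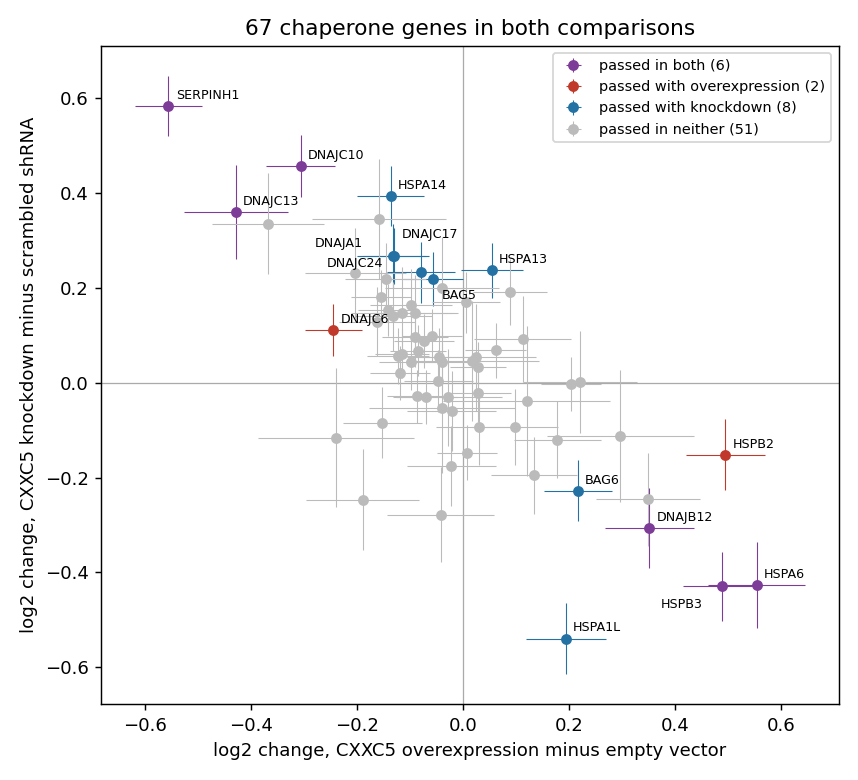
Log2 change with CXXC5 overexpression against empty vector (x axis) and with CXXC5 knockdown against scrambled shRNA (y axis) for 67 chaperone genes. Points are genes, bars are standard errors, and colours show in which comparison a gene passed. The 6 genes that passed in both lie in the upper left (SERPINH1, DNAJC10, DNAJC13) and the lower right (HSPA6, HSPB3, DNAJB12).

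The 2 comparisons share no arrays, but their tests share 1 estimate of each gene's spread, made from all 12 arrays. In both comparisons 6 genes passed, 3 of which fell with overexpression and rose with knockdown and 3 of which did the reverse. In the same direction 0 passed, and 51 passed in neither comparison. The matching counts over all genes were not made, so these counts alone do not set chaperones apart. With only the 6 arrays of a comparison fitted, the overexpression call of DNAJC10 and the knockdown calls of DNAJC13 and DNAJB12 were lost. Over all 67 genes, 48 had changes of opposite sign (71.6%), close to the 69.6% of all genes. The difference of the effects, overexpression minus knockdown, was past the threshold for 21 of the 67 (31.3%, against 20.4% of all genes). It was positive for 7, against 8.15% of all genes, and negative for 14, against 12.3%. SERPINH1 (-1.14), DNAJC13 (-0.79), DNAJC10 (-0.76), DNAJC15 (-0.70) and HSPA14 (-0.53) were the most negative, and HSPA6 (0.98), HSPB3 (0.92), HSPA1L (0.73), DNAJB12 (0.66) and HSPB2 (0.65) the most positive. Also past it were HSPA4 (-0.30), an HSP70 relative that serves as a nucleotide exchange factor, and DNAJA1 (-0.40), DNAJC17 (-0.40), DNAJC6 (-0.36), DNAJC24 (-0.31), BAG5 (-0.28) and BAG6 (0.44). Leaving out any of 7 arrays lost this call of BAG5, and any of 6 that of DNAJC24.

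The HSP90 genes did not pass. HSP90AA1 and HSP90AB1 encode the inducible and the constitutive cytosolic HSP90. HSP90AA1 measured 13.58 to 13.70 with overexpression, 13.67 to 13.74 with empty vector, 13.58 to 13.62 with knockdown and 13.59 to 13.71 with scrambled shRNA. HSP90AB1 measured 13.42 to 13.48, 13.47 to 13.51, 13.38 to 13.49 and 13.26 to 13.48 in the same groups. All of these ranges overlapped within each comparison. Changes were -0.07 and -0.03 for HSP90AA1 and -0.04 and 0.04 for HSP90AB1, with overexpression and with knockdown in turn.

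In the mitochondrion, HSPD1 (HSP60) measured 13.63, 13.64 and 13.65 with overexpression, against 13.76, 13.75 and 13.75 with empty vector. These arrays did not overlap, yet the change of -0.12 did not pass (SE 0.0515, adjusted p = 0.231). With knockdown HSPD1 stood at 0.06, with 13.71 in all 3 arrays against 13.71, 13.66 and 13.58 with scrambled shRNA. HSPE1 (HSP10) stood at -0.15 and -0.08. HSF1, the factor that drives the heat shock response, measured 8.61 to 8.72 with overexpression and 8.60 to 8.67 with empty vector. It measured 8.54 to 8.57 with knockdown and 8.51 to 8.67 with scrambled shRNA. Its changes of 0.03 and -0.02 had 95% intervals of -0.10 to 0.16 and -0.15 to 0.11. The array reads the level of HSF1 mRNA, not the activity of its protein.

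Of the 9 CCT genes, 0 passed in either comparison with limma, where 6.98% of all genes passed with overexpression and 14% with knockdown. At an unadjusted p under 0.05, 0 CCT genes passed with overexpression and 1 with knockdown, CCT6A at 0.22. The share of all genes at that p was not counted. The mean over CCT2, CCT3, CCT4, CCT5, CCT6A, CCT7 and CCT8 was 12.43, 12.44 and 12.37 in overexpression arrays, against 12.52, 12.50 and 12.48 in empty vector arrays. It was 12.36, 12.47 and 12.42 in knockdown arrays, against 12.37, 12.38 and 12.31 with scrambled shRNA. The empty vector arrays were the highest of the 12. The 7 subunits stood at -0.15 to -0.05 with overexpression and -0.03 to 0.22 with knockdown. Their 95% intervals reached from -0.31 to 0.09 with overexpression and from -0.15 to 0.39 with knockdown. CCT6A passed in the difference of the effects (-0.37, adjusted p = 0.0324), but its other probe set stood at -0.02 and -0.01 in the 2 comparisons. Leaving out any of 7 arrays also lost this CCT6A call.

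**Figure D4:**
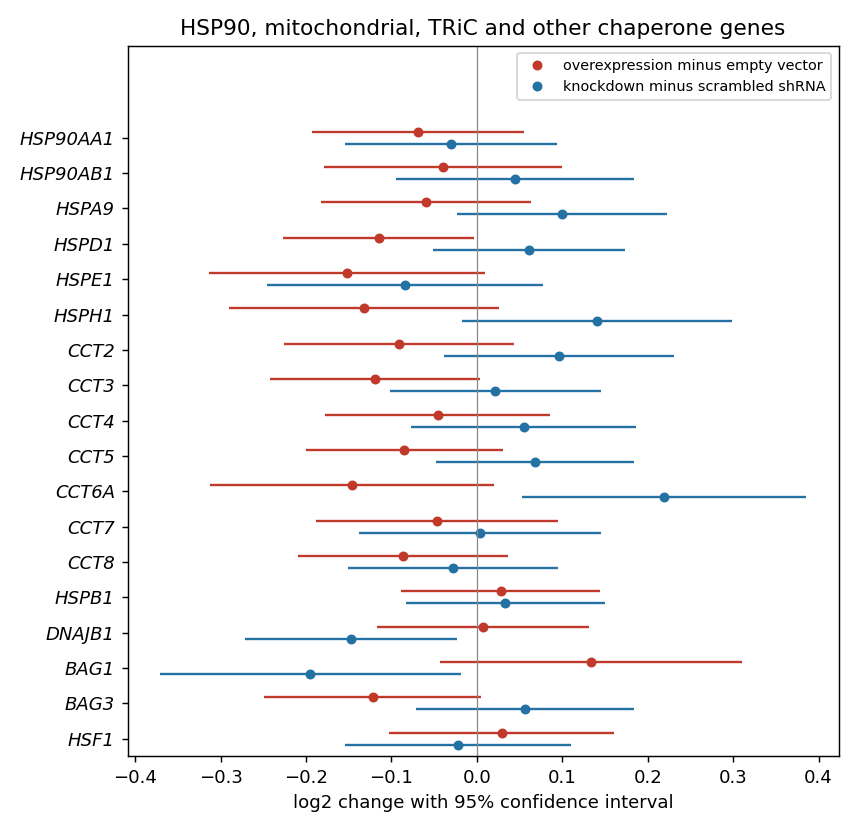
Log2 change (x axis) of 18 chaperone and heat shock genes with overexpression against empty vector and with knockdown against scrambled shRNA. Points are the fitted changes and lines their 95% confidence intervals. None of these genes passed in either comparison, HSF1 lies at 0.03 and -0.02, and the 7 CCT genes drawn lie at -0.15 to -0.05 with overexpression.

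More chaperone genes differed between the 2 controls than between either manipulated group and its control. In scrambled shRNA against empty vector, 26 of 67 chaperone genes differed (38.8%, against 31.5% of all genes). Of these 8 were higher, against 16.2% of all genes, and 18 were lower, against 15.3%. The lowest were DNAJC13 (-0.59), SERPINH1 (-0.56), DNAJB14 (-0.48), DNAJC10 (-0.47), DNAJC17 (-0.47) and HSPA14 (-0.42). The highest were HSPB3 (0.73), HSPA6 (0.47), HSPB2 (0.43), DNAJB12 (0.43), BAG6 (0.30) and HSPA1L (0.29). DNAJB14 is an endoplasmic reticulum membrane J-protein like DNAJB12, and it measured 8.25, 7.92 and 8.03 with scrambled shRNA, against 8.69, 8.46 and 8.49 with empty vector. These groups did not overlap, though the call was lost without empty vector replicate 1 or scrambled shRNA replicate 2. Counted by groups that did not overlap, 11 of the 67 were higher and 28 lower, against 23.8% and 21.9% of all genes. The 2 controls differ in vector, in delivery and in whether it was stable, which cannot be told apart.

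By family, 6 of 17 DNAJC genes were lower and 0 higher with scrambled shRNA, and 3 of 6 small heat shock genes were higher and 0 lower, where 15.3% of all genes were lower and 16.2% higher. Among HSP70 genes 2 were higher and 2 lower, and among BAG genes 1 was higher and 2 lower. HSPH1, the cytosolic HSP110, was lower by -0.24 (adjusted p = 0.027), at 11.21, 11.09 and 10.91 against 11.37, 11.29 and 11.26 with empty vector. Without scrambled shRNA replicate 3, the array with the large GAPDH difference, the calls of HSPH1, CCT2, DNAJA2, DNAJC16, BAG2 and HSPB7 ended. The part of RNA quality in these was not tested. Between the controls, the calls of SERPINH1, HSPA6, HSPA14, HSPB2, HSPB3, DNAJC10 and DNAJC13 held without it. That array also enters the knockdown comparison, where the calls of DNAJC13, DNAJB12, DNAJC24 and BAG6 ended without it. Between the controls, the median over the 67 genes was -0.07 without that array, against -0.06 with it. That over the 17 DNAJC genes was -0.13, against -0.17, and that over the 9 HSP70 genes was 0.0035, against -0.0392. With knockdown against scrambled shRNA these medians were 0.04, 0.12 and 0.06 without it, against 0.05, 0.11 and 0.10 with it.

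Between knockdown and empty vector arrays, 2 of the 67 genes differed (2.99%, against 4.54% of all genes). Counted by groups without overlap, 6 of the 67 lay wholly higher with knockdown and 23 wholly lower, against 17.5% and 12.5% of all genes. HSPB3 was higher by 0.30, where 3.02% of all genes were higher. DNAJC11, a mitochondrial J-protein tied to cristae, was lower by -0.28 (adjusted p = 0.0267), where 1.52% of all genes were lower. DNAJC11 measured 9.33, 9.37 and 9.36 with knockdown, against 9.58, 9.71 and 9.60 with empty vector, and 5 of the 12 arrays could each end the call when left out. Overexpression and scrambled shRNA means were both above, or both below, the means of the other 2 groups for 36 of 67 genes (13 above, 23 below, 53.7%), against 39.9% of all genes. For 11 of the 67 genes (16.4%, against 7.67% of all genes) this held for every array. HSPA6, HSPB2, HSPB3 and DNAJB12 were above, and SERPINH1, HSPA14, DNAJC10, DNAJC6, DNAJA1, BAG2 and CCT5 were below. This order was looked for after the values were seen, and it is given without a test.

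In other lists of protein folding genes, few passed in either comparison, and their counts stand beside 6.98% of all genes called with overexpression and 14% with knockdown. Of 16 measured cochaperones of HSP90 and HSP70, TTC4, an HSP90 cochaperone, fell by 0.38 with overexpression (SE 0.0585, adjusted p = 0.00206) and rose by 0.41 with knockdown (adjusted p = 0.000795), and no other passed in either comparison. The median over the 16 was -0.08 with overexpression and 0.06 with knockdown. Of 13 mitochondrial chaperones and proteases, the serine protease HTRA2 rose by 0.30 with overexpression (adjusted p = 0.00698) and fell by 0.42 with knockdown (adjusted p = 0.00045), again the 1 call in each. Of 10 genes listed as other heat shock factor targets, SQSTM1, the autophagy receptor p62, fell by 0.71 with knockdown (SE 0.0815, adjusted p = 0.000189). With overexpression 0 of the 10 passed with limma (4 at an unadjusted p under 0.05). That list also holds HSF4, itself a heat shock factor. Of 7 genes listed with prefoldin, URI1 and UXT among them, 0 passed in either comparison with limma. At an unadjusted p under 0.05, 0 genes of the prefoldin list passed with overexpression and 4 with knockdown. At that p, 5 and 4 cochaperones, 1 and 5 mitochondrial genes and 4 and 6 genes of the heat shock factor list passed, in the same order. The share of all genes at that p was not counted, so these numbers cannot be set against it. The medians of the mitochondrial, heat shock factor and prefoldin lists were -0.04, -0.02 and 0.04 with overexpression, and -0.04, -0.07 and -0.01 with knockdown. Between scrambled shRNA and empty vector, where 31.5% of all genes were called, 4 of 16 cochaperones and 6 of 13 mitochondrial genes were called. So were 5 of 10 genes in the heat shock factor list and 4 of 7 in the prefoldin list. HSF4, URI1 and UXT were among these. SQSTM1 (0.95), HTRA2 (0.48) and TTC4 (-0.38) were among those called between the controls. In knockdown against empty vector they stood at 0.24, 0.06 and 0.03 in turn and did not pass. Some cochaperones are also in the heat shock factor list.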

How the data were processed

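Expression was measured on 12 Affymetrix 3′ arrays, 3 per group. The deposited log2 values, 1 per probe set and array between 2.07 and 14.4, were made with Affymetrix Expression Console, per the submitters' processing notes; the software's version, and how it summarised probes, are not given by any source used here, and the log2 scale was inferred from the range. Of 22277 probe sets, 62 controls were left out, and 19064 were paired with 1 symbol, 1043 with several and 2108 with none by the platform annotation. Symbols were looked up by gene identifier in RefSeq (19052 matched, 0 changed). Probe sets with several symbols were not named. The brightest probe set stood for a gene; 28 of the 67 members had several, and 32 used one of a kind (_s_at or _x_at) that can match other transcripts.

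The linear models were made with limma 3.58.1 (R 4.3.3), using 1 coefficient per group (8 residual degrees of freedom), followed by eBayes, two-sided tests and Benjamini-Hochberg adjustment over 11963 genes. Intervals are 95% from this fit. Shares of all genes were not counted at an unadjusted p. Scripts were first tested on simulated data. Alternatives were other normalizations, filters, probe set rules, priors, array weights, a replicate block and leaving out each array. The members, lists and naming rule were chosen with earlier results of these data known. Named were all members past the threshold in overexpression, knockdown or their difference, the 6 largest changes each way between controls, and a fixed set of well-known chaperones. For arrays, their number limits the precision. Figures were drawn with matplotlib 3.10.9.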

Additional observations from a re-analysis of the deposited data

How the results depend on the processing

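The number of arrays, 3 a group, limits the precision, signal over background was not given for single probe sets, and probe sets may read related transcripts. The 71 member calls kept their direction in all 1508 values over the alternatives run, and 193 values missed the threshold. In every setting that included their gene, 38 calls held, and some settings left genes out. Leaving out 1 array at a time gave 4 to 10 member calls with overexpression (8 with all arrays), 7 to 14 with knockdown (14), 17 to 24 for the difference of the effects (21), 18 to 26 between the controls (26), 0 to 3 for knockdown against empty vector (2) and 20 to 26 over the 4 groups (24). Without _s_at and _x_at probe sets, 43 members were left and these counts were 5, 9, 13, 15, 0 and 15. At an adjusted p under 0.01 the counts with overexpression, with knockdown, between the controls, for knockdown against empty vector and over the 4 groups were 4, 6, 16, 0 and 15. Fitting only the 6 arrays of a comparison gave 6 calls with knockdown and 0 for knockdown against empty vector. That last count, 2 in limma and 13 at an unadjusted p under 0.05, was 4 with median centring, 4 without the 40% of genes of lowest mean, 4 with a trended and robust prior, 7 with array weights, 1 with all probe sets in the fit and 6 at an adjusted p under 0.1. The cause of these shifts was not tested, except that fewer members or arrays entered some fits. Replicate numbers were not taken as pairs, since deviations of same-numbered arrays correlated at -0.115 to 0.395 and 10 of 18 pairs, not all, were over 0.1. Those 10 were 5 of 6 pairs of number 1 and 5 of 6 of number 3, so an effect shared by these numbers is possible. With the replicate block the 6 counts were 9, 15, 23, 26, 2 and 26.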
